A study of Mus musculus with 18 samples.

Results

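The genes described here are the mouse Wnt ligands (Wnt), their Frizzled receptors (Fzd), the secreted Frizzled-related proteins (Sfrp), the Dickkopf proteins (Dkk) and the R-spondins (Rspo). They were taken by symbol, every gene named Wnt, Fzd, Sfrp, Dkk or Rspo with a number and, where present, a closing a or b. This gave 41 of the 21881 gene symbols counted: 19 Wnt, 10 Fzd, 4 Sfrp, 4 Dkk and 4 Rspo genes.

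RNA was sequenced from cells of the aorta-gonad-mesonephros region (AGM) of embryonic day 11 mice of a C57BL6 line that carries the BRE-GFP transgene, a GFP reporter of BMP signalling. AGM is the embryonic tissue in which the first adult-type hematopoietic stem cells appear. All groups share this line and age. Cells were sorted into a mesenchymal cell enriched population (MC, CD31 negative and c-Kit negative), an endothelial enriched population (EC, CD31 positive and c-Kit negative) and a population enriched for hematopoietic progenitor and stem cells (HPSC, CD31 positive and c-Kit positive). Each was taken from fresh tissue, from explants cultured with BMP and Hedgehog present (explant), or from explants cultured with cyclopamine, an inhibitor of the Hedgehog transducer Smoothened, added (cyclopamine), and each was split into BRE-GFP negative and BRE-GFP positive cells. The 18 libraries are the 18 combinations with 1 library each, so no group has a repeat, and whether tissue was pooled is not given in the sources used here. The explant groups are compared with freshly dissected tissue, so time in culture and the added factors cannot be told apart.

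Wnt proteins are secreted lipid-modified ligands that bind Frizzled receptors together with Lrp5 or Lrp6. In the canonical branch this stabilises beta-catenin, which acts with TCF/LEF factors at target genes such as Axin2, while other Wnt proteins, of which Wnt5a is the best known, act through Ror receptors and the planar polarity and calcium branches. Sfrp proteins bind Wnt ligands outside the cell, Dkk1, Dkk2 and Dkk4 bind the Lrp5 and Lrp6 coreceptors, and R-spondins raise the number of Frizzled receptors on the cell surface through Lgr receptors. Wnt signalling is known to act on the emergence of hematopoietic stem cells in the AGM.

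Libraries held 3041249 to 21972063 counts on genes. The sort markers followed the labels: Pecam1, which encodes CD31, was at 2.99 to 11.5 CPM (counts scaled to the same library size) in MC and at 93.6 to 1682 CPM in EC, and Kit was at 449.7 to 1134 CPM in HPSC against 42.6 to 219.8 CPM in EC. The summed level of 10 mesenchymal markers was 2879 to 8369 CPM in MC, 1130 to 7214 CPM in EC and 297.7 to 1038 CPM in HPSC, so EC libraries also carried mesenchymal transcripts, and all 10 markers had counts in every EC library. The summed level of 7 macrophage markers was 766 to 5839 CPM in EC and 572.9 to 4030 CPM in HPSC against 44.63 to 142 CPM in MC. The HPSC cyclopamine negative library stood apart by its depth of 3041249 counts and by counts on only 13 of the 41 Wnt pathway genes.

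The first sequences shown are promoters of members that the results below turn on. RefSeq promoter entries (build GRCm38.p6) matched 27 of the 41 genes, with 30 promoters, and the 250 bases before the start were searched. Sfrp2, Rspo1 and Wnt9a were lower in HPSC than in MC, and Fzd4 is the receptor with the widest gap, as a fold change, between BRE-GFP fractions of EC. Capitals mark GGCGCC, a palindrome that is the core of the BMP response element of the kind used in BRE reporters, so that both strands read alike. The windows lie at chr3:83766071-83766320 (plus strand) for Sfrp2, chr4:124986180-124986429 (plus strand) for Rspo1, chr11:59306680-59306929 (plus strand) for Wnt9a and chr7:89404116-89404365 (plus strand) for Fzd4, and all end at the base before the RefSeq start.
Sfrp2: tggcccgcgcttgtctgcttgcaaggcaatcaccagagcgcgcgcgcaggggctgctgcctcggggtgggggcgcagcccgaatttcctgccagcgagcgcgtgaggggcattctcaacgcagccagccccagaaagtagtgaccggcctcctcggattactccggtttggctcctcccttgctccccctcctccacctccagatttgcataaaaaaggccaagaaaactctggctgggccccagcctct
Rspo1: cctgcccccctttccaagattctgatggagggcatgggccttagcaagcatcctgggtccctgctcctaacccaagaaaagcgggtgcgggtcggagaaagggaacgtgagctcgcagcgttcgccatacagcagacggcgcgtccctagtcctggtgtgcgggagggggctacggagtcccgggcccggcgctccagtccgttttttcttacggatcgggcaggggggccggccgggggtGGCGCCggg
Wnt9a: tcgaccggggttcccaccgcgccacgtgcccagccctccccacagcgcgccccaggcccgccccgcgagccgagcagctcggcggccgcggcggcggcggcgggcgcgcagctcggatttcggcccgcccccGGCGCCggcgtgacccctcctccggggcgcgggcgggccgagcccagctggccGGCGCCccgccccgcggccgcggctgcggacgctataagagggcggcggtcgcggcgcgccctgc
Fzd4: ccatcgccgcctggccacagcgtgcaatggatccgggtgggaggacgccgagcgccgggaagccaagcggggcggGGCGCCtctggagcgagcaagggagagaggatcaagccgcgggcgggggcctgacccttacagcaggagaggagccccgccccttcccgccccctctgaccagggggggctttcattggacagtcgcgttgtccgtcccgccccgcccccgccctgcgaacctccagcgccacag
GGCGCC was present in 10 of the 30 promoters of these genes (33.3%) and in 9.59% of 32851 promoters of the same length. The median GC content was 68.8% in these genes and 52.4% in all promoters, and its part in the motif count was not tested. The Sfrp2 window held no copy. A TCF/LEF motif, CTTTGA or CTTTGT on either strand, was present in 7 of the 30 (23.3%) against 27.6% of all promoters. The Gli motif TGGGTGGTC on either strand was present in 0 of the 30 against 0.225% of all promoters. Of the 10 genes called between HPSC and MC, 4 had a promoter entry, and 2 of these 4 held GGCGCC. Wnt9b, the called gene with an entry that is not shown, held no copy. Fzd4, which is shown, was called by edgeR in no comparison.

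The members' summed level fell into an order by population: 925.8 to 1557 CPM in MC, 323.2 to 821.7 CPM in EC and 171.3 to 430.4 CPM in HPSC, with the EC and HPSC ranges overlapping and the MC range above both. Of the 41 genes, 21 reached 10 CPM in at least 1 library, and the mean was at or above 10 CPM for 11 genes in MC, 13 in EC and 9 in HPSC. Most Wnt ligands were near the floor of detection: 6 of the 19 reached 10 CPM in any library. Wnt1 had counts in 1 library of 18, EC explant positive, at 1.28 CPM. In bulk RNA from sorted cells, fewer cells of a type that expresses a gene and less RNA per cell cannot be told apart.

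**Figure D1:**
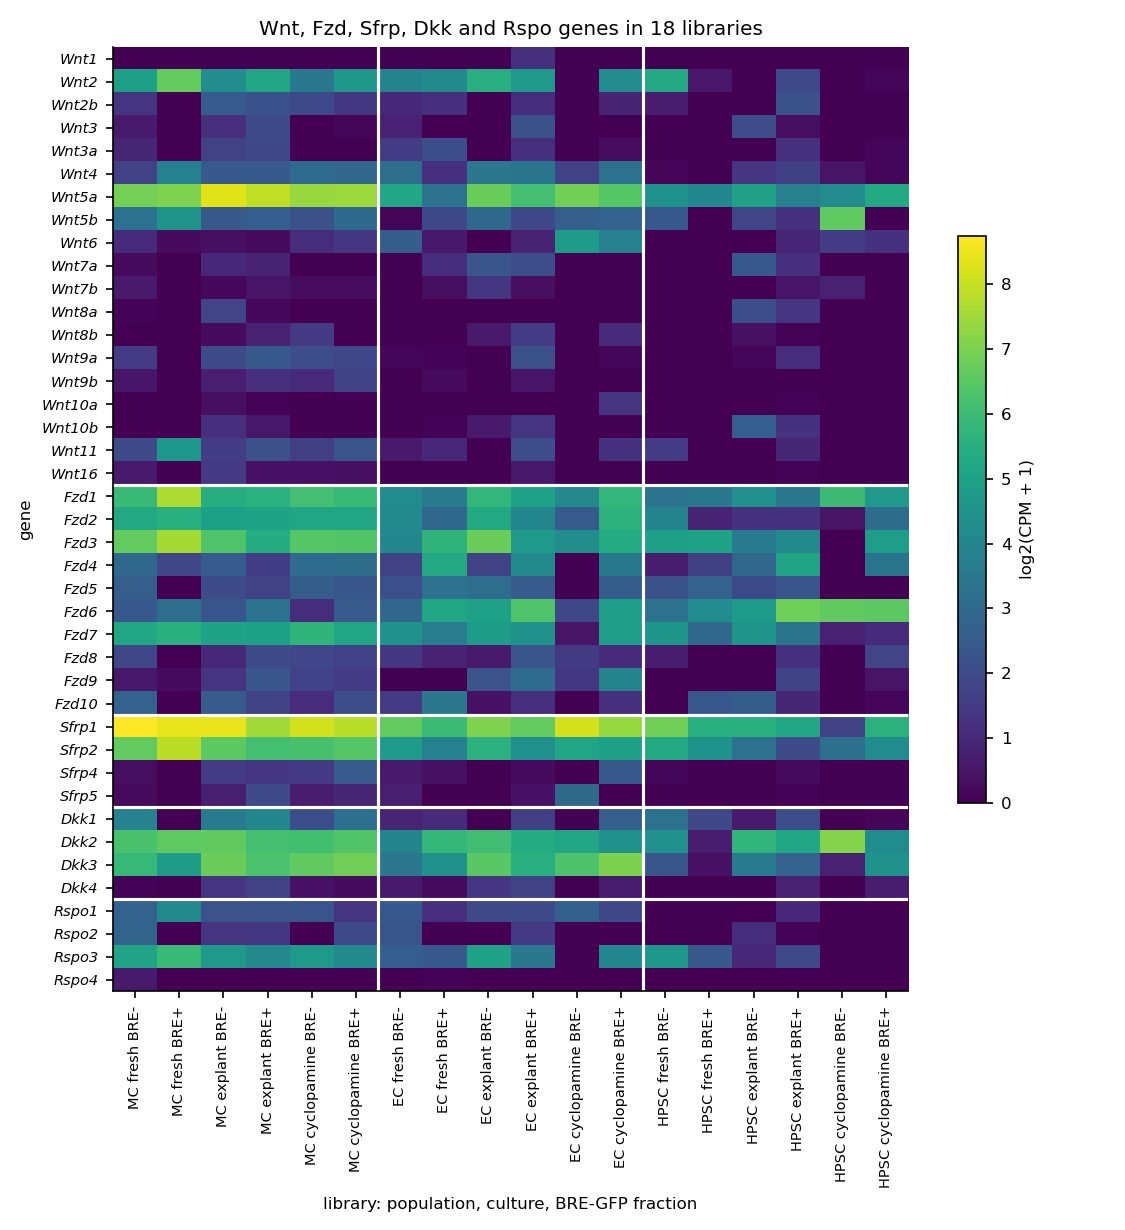
Level of each of the 41 genes (rows, grouped by family) in each of the 18 libraries (columns, by population, culture and BRE-GFP fraction), coloured by log2(CPM + 1). Wnt5a, Sfrp1, Sfrp2, Dkk2, Dkk3, Fzd1, Fzd2 and Fzd3 are bright across the 6 MC libraries, and most other Wnt rows are dark in all 18.

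Levels of different genes were compared per kilobase of the union of annotated exons. In MC the order was led by the 2 Sfrp antagonists: Sfrp1 at 69.5 ± 20.2 CPM per kb (SD, n = 6) and Sfrp2 at 50.3 ± 28.2 CPM per kb. Their ranges overlapped, 42.7 to 98.2 for Sfrp1 and 32.5 to 107 for Sfrp2. Wnt5a (24.6 ± 9.84), Dkk3 (24.0 ± 10.2), Dkk2 (21.8 ± 3.49), Fzd1 (19.1 ± 14.6) and Wnt2 (16.3 ± 14.5 CPM per kb) followed, and neighbours in this order did not differ beyond their spread. Without MC fresh positive, at 101 CPM, the Wnt2 mean was 10.6 CPM per kb. In EC Sfrp1 again led, at 32.2 ± 18.4 CPM per kb, followed by Dkk3 at 18.3 ± 13.4 and Sfrp2 at 13.5 ± 5.48. In HPSC the order began with a receptor, Fzd6 at 12.3 ± 9.56 CPM per kb, with Dkk2 at 12.1 ± 13.5 and Sfrp1 at 11.1 ± 8.3, and these 3 overlapped widely. Without HPSC cyclopamine negative the Dkk2 mean was 6.98 CPM per kb, and Sfrp1, not Fzd6, had the highest mean per kb. In that library Fzd6 was at 96.9 CPM and Sfrp1 at 2.26 CPM, so the lead of Fzd6 rested on it. The fifth in HPSC, Wnt5b at 6.65 CPM per kb, owed its mean to 1 library, HPSC cyclopamine negative, at 36.8 CPM per kb.

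HPSC were first set against MC, the population positive for CD31 and c-Kit against the one negative for both. Libraries were matched by culture and fraction into 6 blocks. Fewer transcripts of a Wnt ligand, of Wnt antagonists and of receptors were found in HPSC, and more of 1 receptor, Fzd6. Of the 36 members that passed the filter on low counts, 10 were called at an adjusted p under 0.05 by edgeR's quasi-likelihood test: 9 were lower in HPSC and 1 was higher. Over all 16231 genes tested, 9.95% were called in this comparison, 5.85% lower in HPSC and 4.1% higher. The median log2 fold change was -2.58 over the 36 members and -0.376 over all genes tested, and 33 of the 36 members had a negative value. An unadjusted p under 0.05 was reached by 19 of the 36 members (52.8%) and by 25.1% of all genes. The groups did not overlap for 10 members, against 7.86% of all genes, and 13 were lower in HPSC in every block, against 10.8%. The summed mesenchymal markers were also lower in HPSC in these libraries, 297.7 to 1038 CPM against 2879 to 8369 CPM. The summed endothelial markers were higher in HPSC, 391.9 to 7687 CPM against 66.68 to 247.1 CPM. The part of either sum in the members' difference was not tested.

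Among ligands, Wnt5a (chromosome 14, 28504750 to 28527448, GRCm38), the prototype of the non-canonical branch, had the lowest p. It was at 119, 170 and 323 CPM (lowest, median and highest) in MC and at 13.3, 19.6 and 39.3 CPM in HPSC. The 2 groups did not overlap, and every HPSC library was lower than its MC partner. The log2 fold change was -3.03 ± 0.43 (SE), with an adjusted p of 0.000269. Wnt9a, a ligand of the canonical branch, was at 0 to 4.45 CPM with a median of 2.89 CPM in MC, and was at 0 in 4 of 6 HPSC libraries and at most 1.2 CPM in the others (adjusted p = 0.0313). Wnt9b, known for its role in the nephric duct, was at 0 in all 6 HPSC libraries and had 108 counts over the 6 MC libraries (pooled 1.21 CPM, adjusted p = 0.0379). Taking 3 counts over all 6 HPSC libraries as the floor, Wnt9b was at least 24.1-fold higher in MC. Wnt9b reached the 0.796 CPM of the filter on low counts only in MC libraries. The filter thus admitted it through the group where it was high, and it did not pass a filter that asked for 6 libraries. Both Wnt9 genes were at 0 in MC fresh positive, so their groups overlapped there. Wnt9a held its call in 8 and Wnt9b in 6 of 18 fits that each left out 1 library, with an adjusted p of up to 0.102 (Wnt9a) and 0.0902 (Wnt9b), both without MC explant negative. The 10 nephric markers summed to 98.91 to 162.7 CPM in MC and 11.84 to 51.26 CPM in HPSC, and their part in the Wnt9b difference was not tested. They did not all go this way: Lhx1 (0.667 CPM in MC, 0.815 CPM in HPSC) and Six2 (3.24 and 5.03 CPM) averaged higher in HPSC. Each of these HPSC means rested largely on its highest library, at 3.19 CPM for Lhx1 and 28.3 CPM for Six2. Pax2 averaged 0.215 CPM in MC, and Cdh6, at 43.5 CPM, was the largest part of the MC sum. The highest sum was in MC fresh positive, where Wnt9b was at 0.

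Wnt2, Wnt4 and Wnt11 were not called (adjusted p = 0.0651, 0.0636 and 0.0723). Wnt2 ranged from 10.7 to 101 CPM in MC with a median of 27.4 CPM. In HPSC its median was 0.285 CPM, with a single high library, HPSC fresh negative, at 38.1 CPM. Wnt4 was at 2.28 to 13.4 CPM in MC and at 0 to 2.14 CPM in HPSC, and Wnt11 at 2.04 to 24.6 CPM and 0 to 1.84 CPM. For Wnt4 and Wnt11 the groups did not overlap.

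Of the secreted antagonists, Sfrp1, Sfrp2 and Dkk3 were called. Sfrp1 (chromosome 8, 23411502 to 23449632) was at 187, 313 and 430 CPM in MC and at 2.26, 44.9 and 114 CPM in HPSC. Its log2 fold change was -2.71 ± 0.56, with an adjusted p of 0.00568. Sfrp2 (chromosome 3, 83766321 to 83774316) was at 69.9, 89.2 and 230 CPM in MC and at 3.07, 13.6 and 38.9 CPM in HPSC. It gave a log2 fold change of -2.91 ± 0.54 and an adjusted p of 0.00251. For both Sfrp genes every MC library was above every HPSC library. Dkk3 (chromosome 7, 112116017 to 112159057), a divergent Dickkopf whose binding to the Lrp coreceptors is not established, was at 26.9, 86.5 and 116 CPM in MC and at 0.359, 4.87 and 21.1 CPM in HPSC. Its log2 fold change was -3.97 ± 0.62 (adjusted p = 0.000594), and here too the groups did not overlap. Dkk2, which binds Lrp5 and Lrp6, was not called: it was at 67.7 to 97.5 CPM in MC and at 0.598 to 140 CPM in HPSC (adjusted p = 0.268). The highest Dkk2 value of all 18 libraries, 140 CPM, was in HPSC cyclopamine negative.

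Receptors went both ways. Fzd2 (chromosome 11, 102604396 to 102608058) was at 29.6, 35.0 and 44.5 CPM in MC and at 0.377, 1.42 and 14.3 CPM in HPSC, with a log2 fold change of -4.06 ± 0.86 (-4.73 without HPSC fresh negative) and an adjusted p of 0.00639. Fzd3 (chromosome 14, 65192449 to 65262463), a receptor of the planar polarity branch, was at 41.8, 83.3 and 191 CPM in MC and at 0, 23.2 and 32.7 CPM in HPSC. The log2 fold change of Fzd3 was -2.41 ± 0.72 (adjusted p = 0.0427), and it held the call in 5 of 18 leave-one-out fits, with an adjusted p of up to 0.109, without HPSC explant negative. For Fzd2 and Fzd3 the groups did not overlap. Fzd1 at 42.3 to 204 CPM in MC and 9.2 to 62.6 CPM in HPSC (adjusted p = 0.0592) and Fzd7 at 29.8 to 51.4 CPM and 0.754 to 24 CPM with no overlap (adjusted p = 0.0944) were not called.

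Fzd6 (chromosome 15, 39006034 to 39038188), a receptor linked to planar polarity, was the 1 member higher in HPSC. It was at 1.22, 4.56 and 8.97 CPM in MC, at 2.73, 30 and 81 CPM in EC and at 8.91, 59.6 and 112 CPM in HPSC. It was higher in HPSC in 6 of 6 blocks, with a log2 fold change of 3.35 ± 0.82 and an adjusted p of 0.0154, although the lowest HPSC library, fresh negative at 8.91 CPM, lay just under the highest MC library. Without HPSC cyclopamine positive the adjusted p was 0.0518, and without HPSC cyclopamine negative the log2 fold change was 2.47 (adjusted p = 0.0184). Fzd6 shares exonic bases with an annotated gene, Gm26704, as Wnt5a does with Gm2670 and Sfrp2 with Gm26771. The same holds for Wnt11 with Gm8398, Rspo3 with Gm48159, Fzd5 with Gm38058 and Wnt7b with AU022754. Since the strand setting of the counting is not given in the sources used here, their reads cannot be told apart.

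Of the 3 R-spondins tested, 1 was called. Rspo1 (chromosome 4, 124986430 to 125009099) was at 1.54, 3.74 and 17 CPM in MC and had counts in only 1 HPSC library, explant positive, at 1.0 CPM. Its log2 fold change was -6.42 ± 1.62 with an adjusted p of 0.0185, which was 0.0563 without HPSC explant negative and 0.0555 without HPSC cyclopamine positive. The fitted value depended on single libraries: it was -7.60 without MC explant positive, -7.30 without EC explant positive, -5.68 without HPSC fresh positive and -5.59 without MC fresh positive. Without HPSC explant positive, Rspo1 was at 0 in every HPSC library left, so the fitted value, -8.89, is not an estimate of size. Rspo3, the most abundant R-spondin, was at 16.4 to 60.7 CPM in MC and at 0 to 24.3 CPM in HPSC, the highest in fresh negative, and was not called (adjusted p = 0.115). Just outside the threshold stood Sfrp5, at 0 to 3.1 CPM in MC with a mean of 0.923 CPM and counts in 1 HPSC library (adjusted p = 0.0535).

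**Figure D2:**
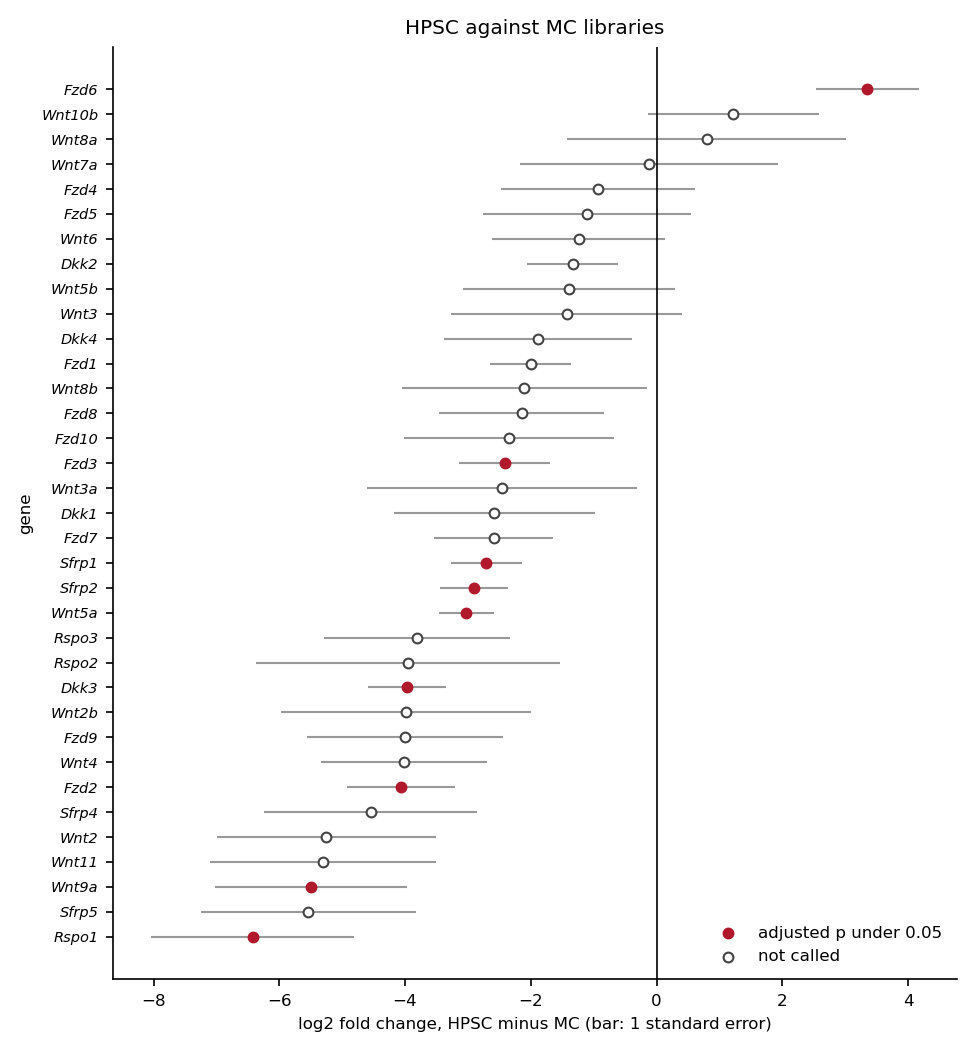
Log2 fold change, HPSC minus MC, with 1 standard error for 35 of the 36 tested members (Wnt9b, at 0 in all HPSC libraries, is left out), filled where the edgeR adjusted p was under 0.05. Only 3 points lie right of 0, Fzd6, Wnt10b and Wnt8a, and of these Fzd6 at 3.35 is the called one.

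The calls of Wnt5a, Dkk3, Sfrp2, Sfrp1 and Fzd2 held in all 18 leave-one-out fits. The number of members called was 5 without HPSC cyclopamine positive and 6 without HPSC explant negative. The share of reads outside annotated features ranged from 19.51 to 49.41%, and with it as a covariate 2 members were called, Wnt5a and Dkk3.

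Other genes of the pathway were read from 5 lists. Of 16 genes for Wnt secretion and coreceptors, 3 fell in HPSC against MC and none rose: Wls, the Wnt cargo receptor (169 ± 37.1 against 325 ± 77.1 CPM, adjusted p = 0.0104), Lgr4, an R-spondin receptor (60.4 ± 36.1 against 148 ± 39.5 CPM, adjusted p = 0.00898), and Ror2, a Wnt5a receptor (2.24 ± 1.80 against 22.6 ± 16.2 CPM, adjusted p = 0.043). Lrp6, at 77.2 ± 27.9 and 105 ± 20.2 CPM, was not called (adjusted p = 0.472). Of 12 tested genes for other secreted or membrane modulators, 3 fell: Gpc3, a glypican, at 266 ± 177 against 1899 ± 685 CPM (adjusted p = 0.000377), Wif1, a Wnt-binding inhibitor, at 1.17 ± 2.24 against 28.9 ± 20.9 CPM, and Ndp, which encodes the Fzd4 ligand norrin, at 0.089 ± 0.218 against 12 ± 8.89 CPM.

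None of 16 canonical transducers was called, and 4 (25%) had an unadjusted p under 0.05, the share found over all genes (25.1%). Ctnnb1, which encodes beta-catenin, was at 695 ± 302 CPM in HPSC and 564 ± 147 CPM in MC (adjusted p = 0.716). Of 12 tested canonical targets, Nkd1 (0.606 ± 1.36 against 23.8 ± 25.9 CPM) and Tnfrsf19 (3.44 ± 5.0 against 80.8 ± 45.6 CPM) fell, and Cd44, also a general adhesion receptor of blood cells, rose from 56.9 ± 27.8 to 238 ± 67.5 CPM (adjusted p = 0.00248). Axin2 was at 7.03 ± 0.977 CPM in MC, 4.96 ± 3.06 CPM in EC and 6.80 ± 13.2 CPM in HPSC, where 1 library at 33.5 CPM set the mean. Lef1 was at 10.5 ± 2.69, 6.76 ± 6.02 and 4.16 ± 4.19 CPM. In the same order Myc was at 81.9 ± 32.6, 83.0 ± 45.2 and 170 ± 65.5 CPM. Ccnd1 was at 66.2 ± 44.4, 55.5 ± 22.3 and 27.4 ± 32.1 CPM, and Tcf7 at 9.43 ± 5.55, 8.53 ± 8.09 and 27.2 ± 35.2 CPM. None of Axin2, Lef1, Myc, Ccnd1 and Tcf7 was called. Of the 12 targets, 3 had a positive and 9 a negative log2 fold change, HPSC minus MC. Of 15 genes of the planar polarity and calcium branch, only Celsr3 was called, lower in HPSC (0.102 ± 0.214 against 7.26 ± 12.3 CPM, adjusted p = 0.0185). Without MC fresh positive the MC means were 2.28 CPM for Celsr3 and 13.3 CPM for Nkd1. No gene of the 5 lists was called in any other comparison, where the lowest adjusted p was 0.0608.

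HPSC and EC share CD31 and differ by c-Kit. Dkk3 was the only member called: it was at 9.95, 60.8 and 128 CPM in EC against 0.359, 4.87 and 21.1 CPM in HPSC, lower in 6 of 6 blocks, with a log2 fold change of -3.36 ± 0.62 and an edgeR adjusted p of 0.0306. The groups overlapped, because EC fresh libraries were at 9.95 and 20.8 CPM and HPSC cyclopamine positive was at 21.1 CPM. Over all genes 0.32% were called in this comparison, 0.283% lower in HPSC and 0.037% higher. This call held in 6 of 18 leave-one-out fits, those without MC fresh positive, MC cyclopamine negative, MC cyclopamine positive, EC fresh negative, EC fresh positive or HPSC fresh negative. In the others the adjusted p was 0.0517 to 0.135, the highest without EC cyclopamine positive, and it was 0.116 with the share of reads outside annotated features as a covariate. An unadjusted p under 0.05 (edgeR) was reached by 12 of 36 members (33.3%), against 9.32% of all genes. The median log2 fold change was -1.64 over members (-1.58 with genes at 0 in a whole group set at their bound) and -0.172 over all genes. It was negative for 32 members and positive for 4. Rspo1 at 1.32 to 5.46 CPM in EC (adjusted p = 0.16), Fzd2 (adjusted p = 0.203) and Wnt5a (adjusted p = 0.222) were next. Rspo1 was the 1 member whose EC and HPSC libraries did not overlap, against 0.628% of all genes. The mesenchymal markers summed to 1130 to 7214 CPM in EC and 297.7 to 1038 CPM in HPSC, and their part in the Dkk3 difference was not tested.

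MC and EC differ by CD31. Wnt5a was the only member called, higher in MC: EC libraries were at 8.99, 77.3 and 118 CPM, all under the lowest MC library at 119 CPM. The log2 fold change was 1.63 ± 0.42, with an edgeR adjusted p of 0.0472. Over all genes 2.54% were called, 0.259% higher in MC and 2.29% lower. This call rested close to the threshold. It held in 3 of 18 leave-one-out fits (without EC cyclopamine negative, HPSC fresh positive or HPSC cyclopamine negative), and in the others the adjusted p was 0.0519 to 0.156, the highest without MC explant positive. With the share of reads outside annotated features as a covariate it was 0.0741. Other cell type markers also separated these libraries: sympathetic neural crest markers summed to 214.1 to 1089 CPM in MC and 15.31 to 161.3 CPM in EC, nephric markers to 98.91 to 162.7 and 20.89 to 55.3 CPM, and macrophage markers to 44.63 to 142 and 766 to 5839 CPM. Their part in the Wnt5a difference was not tested. Sfrp2 was higher in MC in 6 of 6 blocks with no overlap (13.4 to 47.3 CPM in EC) but was not called (adjusted p = 0.0996). Fzd6 was lower in MC in 6 of 6 blocks, with a log2 fold change of -2.19 ± 0.74 (adjusted p = 0.172). An unadjusted p under 0.05 (edgeR) was reached by 6 of 36 members (16.7%), against 11.4% of all genes. The median log2 fold change, MC minus EC, was 1.24 over members and 0.202 over all genes. The groups did not overlap for 4 members, against 3.57% of all genes. The 3 population comparisons share libraries pair by pair, so their values are not independent of each other.

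**Figure D3:**
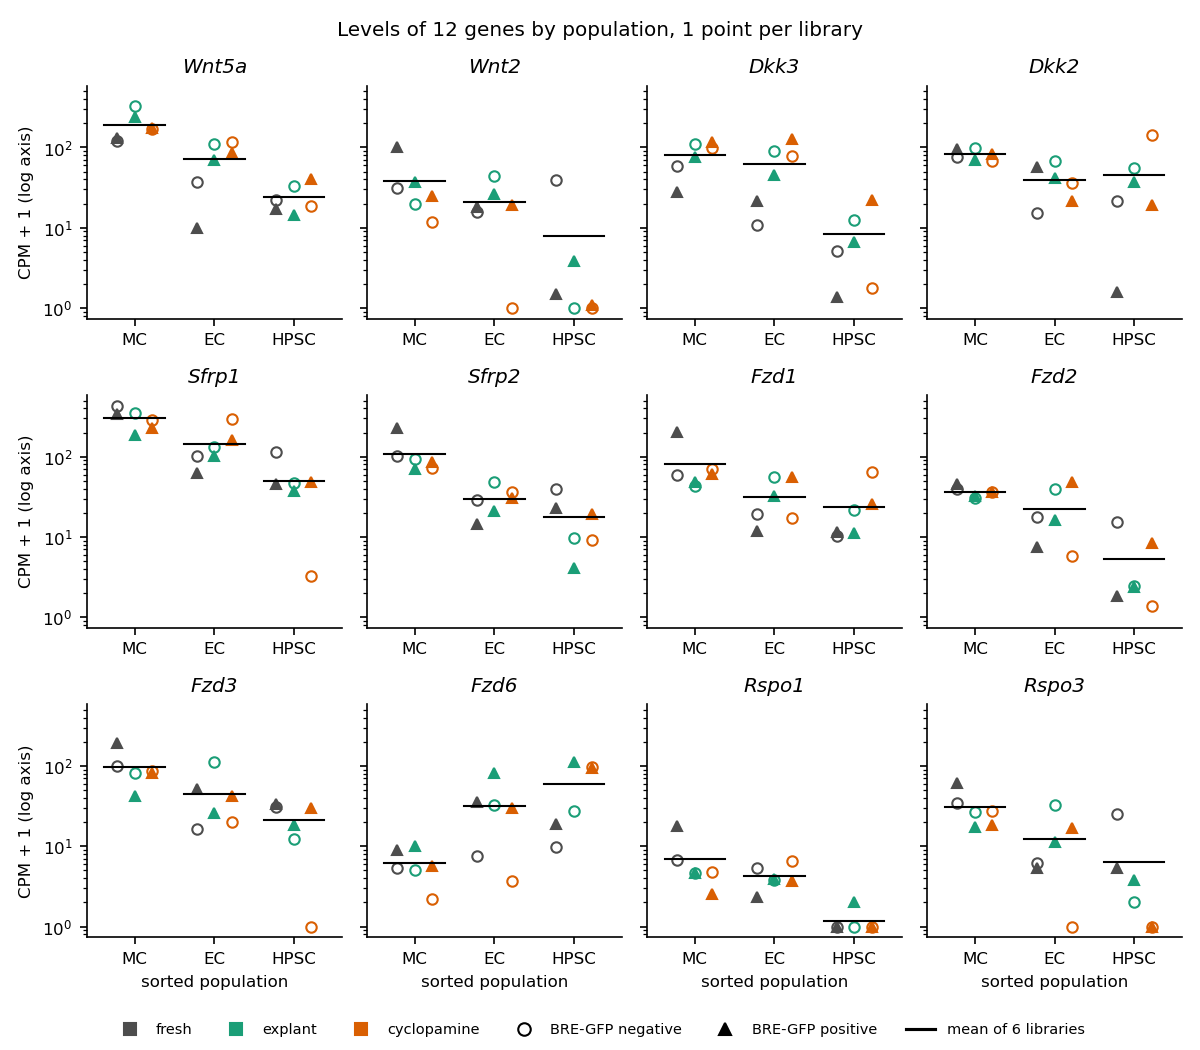
CPM + 1 on a log axis for 12 genes, 1 point per library, by population, with colour for culture, shape for BRE-GFP fraction and a bar for the mean of 6 libraries. Wnt5a, Sfrp1 and Fzd2 step down from MC through EC to HPSC, and Fzd6 steps up from 5.22 to 30.8 to 59.1 CPM on average.

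BRE-GFP positive and negative libraries formed 9 pairs matched by population and culture, which asks whether Wnt pathway transcripts differ with BMP reporter activity. No member was called, and 0.0554% of all genes were. An unadjusted p under 0.05 was reached by 1 of 36 members (2.78%), against 5.3% of all genes, and the median log2 fold change was 0.0399 over members and 0.107 over all genes. The member was Fzd6. Positive libraries ranged from 4.75 to 112 CPM with a median of 28.8 CPM, and negative libraries from 1.22 to 96.9 CPM with a median of 6.45 CPM. Fzd6 was higher in the positive library in 8 of 9 pairs, with a log2 fold change of 1.57 ± 0.46 (edgeR adjusted p = 0.564). The exception was HPSC cyclopamine, at 93.0 CPM in the positive and 96.9 CPM in the negative library. DESeq2 called Fzd6 (adjusted p = 0.00159), and it called 365 genes in all where edgeR called 9.

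Fzd4, the receptor for norrin and a receptor known for its role in vessel growth, showed wider gaps as fold changes in EC and HPSC. In EC it was at 2.30 CPM in the negative and 37.9 CPM in the positive fresh library. The explant pair was at 2.31 and 16.8 CPM and the cyclopamine pair at 0 and 10.7 CPM. Every EC positive library was above every EC negative library. In HPSC the fresh pair was at 0.581 and 2.15 CPM, the explant pair at 6.43 and 33.8 CPM and the cyclopamine pair at 0 and 9.65 CPM. MC went no single way: the pairs were at 6.66 and 2.6, 4.69 and 2.02, and 7.40 and 7.46 CPM. Over all 9 pairs the log2 fold change of Fzd4 was 2.28 ± 1.20 (adjusted p = 1), and within EC it was 4.56 ± 1.76 (adjusted p = 1). No member was called for a BRE-GFP difference that varied with population: Dkk2 and Fzd4 had the lowest p (adjusted p = 1 each), and 0% of all genes were called.

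Endothelial and, in EC, macrophage markers moved with the fraction. The summed level of 10 endothelial markers was 498.1, 951 and 1232 CPM in the EC negative libraries (fresh, explant, cyclopamine) and 8169, 4726 and 1598 CPM in the positive ones. In HPSC it was 391.9, 1023 and 1617 CPM in negative and 6112, 7687 and 3427 CPM in positive libraries. The summed macrophage markers went the other way in EC, at 5839, 2838 and 1210 CPM in the negative libraries and 939.5, 766 and 816 CPM in the positive ones. The part of either sum in the Fzd4 and Fzd6 values was not tested.

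**Figure D4:**
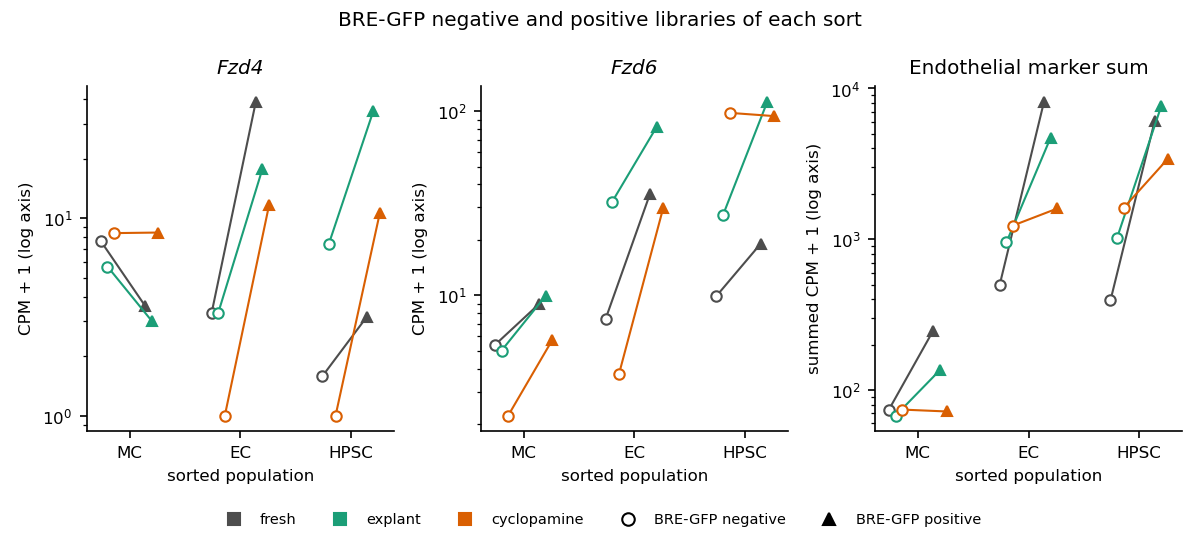
Fzd4, Fzd6 and the summed level of 10 endothelial markers (CPM + 1, log axes) in BRE-GFP negative (open circles) and positive (triangles) libraries, joined within each population and culture. In EC all 3 lines rise in each panel, for Fzd4 from 0 to 2.31 CPM up to 10.7 to 37.9 CPM.

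Over all 9 pairs Wnt11, a non-canonical ligand, had the lowest p after Fzd6 and Fzd4: it was higher in the positive library in 7 of 9 pairs and lower in 1 (4.27 ± 7.75 against 1.07 ± 1.19 CPM, adjusted p = 1). The positive mean was 1.73 CPM without MC fresh positive, at 24.6 CPM. Within populations no member was called either. In MC the 3 positive libraries of Fzd6 (7.23 ± 2.21 CPM) lay above the 3 negative ones (3.20 ± 1.72 CPM, adjusted p = 1). Over all genes 0% were called in MC, 0.0123% in EC and 0.037% in HPSC. Unadjusted p values under 0.05 were reached by 0, 2 and 2 of 36 members (0, 5.56 and 5.56%), against 0.431, 4.29 and 7.6% of all genes, so these counts were near the background or below it. The 2 in EC were Fzd6 and Fzd4 (adjusted p = 1 each). In HPSC they were Dkk2 and Wnt5b, both lower in positive cells. Dkk2 was at 20.4, 53.8 and 140 CPM in the negative libraries and at 0.598, 36.2 and 18.2 CPM in the positive ones (fresh, explant, cyclopamine), with a log2 fold change of -2.78 ± 0.95 (adjusted p = 0.491). Wnt5b was at 4.36, 2.54 and 97.6 CPM against 0, 1.40 and 0 CPM. DESeq2 called Fzd4 and Fzd6 among 405 genes in EC, Dkk2 and Wnt5b among 929 genes in HPSC, and no member among 5 genes in MC, where edgeR called 2, 6 and 0 genes.

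Explants and fresh tissue were matched by population and fraction into 6 blocks. No member was called by edgeR, and 0.136% of all genes were. Limma-voom called Wnt10b (adjusted p = 0.0123) and Wnt7a among 165 genes, and DESeq2 called Fzd9 (adjusted p = 0.0146) among 464 genes. An unadjusted p under 0.05 was reached by 8 of 36 members (22.2%), against 8.58% of all genes, and all 8 were higher in explants. The median log2 fold change was 0.751 over members and 0.184 over all genes. Of these 8 members, 6 were rare transcripts: Wnt10b, Wnt8b, Fzd9, Wnt8a, Wnt7a and Dkk4. Wnt10b, Wnt8a and Dkk4 reached the 0.796 CPM of the filter on low counts only in explants. The filter thus admitted them through the group where they were high, so their place in this count and their direction are no separate result. Wnt10b, a canonical ligand, was at 0.487, 1.35 and 5.16 CPM in the 6 explants and had counts in 1 of 6 fresh libraries, at 0.0629 CPM (adjusted p = 0.193). Wnt8b was at 0.0667 to 1.88 CPM in explants and at 0 in all 6 fresh libraries, at least 14-fold higher in explants over the pooled counts (adjusted p = 0.269). Fzd9 was at 0 to 7.32 CPM in explants and at 0 to 0.493 CPM in fresh libraries (adjusted p = 0.307). The groups did not overlap for 2 members, against 0.998% of all genes.

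The other 2 of the 8 were abundant. Wnt5a was at 13.3, 89.1 and 323 CPM in explants and at 8.99, 28.6 and 131 CPM in fresh libraries. It was higher in the explant in 5 of 6 blocks (log2 fold change 1.13 ± 0.42, adjusted p = 0.381), the exception being HPSC positive cells at 13.3 against 16.0 CPM. Dkk3 was at 5.67, 59.7 and 110 CPM in explants and at 0.359, 15.4 and 57.6 CPM in fresh libraries, higher in 6 of 6 blocks (log2 fold change 1.75 ± 0.65, adjusted p = 0.392). The summed mesenchymal markers had a median of 4425 CPM in explants and 1479 CPM in fresh libraries, and their part in these 2 values was not tested.

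Cyclopamine explants were compared with explants that had no cyclopamine, the contrast in which Hedgehog signalling is inhibited. No member was called, and 0% of all genes were called by edgeR. An unadjusted p under 0.05 was reached by 6 of 36 members (16.7%), against 8.13% of all genes, and limma-voom called 2 members, Wnt10b and Wnt7a (adjusted p = 0.0315 each), of 31 genes in all. DESeq2 called 0 members of 172 genes. Of the 6, 5 were lower with cyclopamine, all of them rare ligands. Wnt10b, Wnt8a and Wnt3 reached the 0.796 CPM of the filter on low counts only in explants without cyclopamine. Wnt7a reached it there and in EC fresh positive. The filter thus admitted them mainly through the group where they were high, so their place in this count and their direction are no separate result. Wnt10b had counts in 6 of 6 explants and in 0 of 6 cyclopamine libraries, at least 44.1-fold lower over the pooled counts (adjusted p = 0.358). Wnt7a, known for roles in muscle and limb, was at 0.834 to 4.29 CPM in explants and at 0 in all 6 cyclopamine libraries, at least 54.3-fold lower (adjusted p = 0.358). Wnt8a, at 0 to 3.26 CPM in explants, was also at 0 in all cyclopamine libraries. Wnt3 was at 0 to 3.49 CPM in explants and had counts in 1 cyclopamine library, at 0.0904 CPM (adjusted p = 0.358), and Wnt3a was at 0 to 2.71 CPM against 0 to 0.226 CPM.

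Wnt6, an epithelial ligand, went the other way. In MC it was at 0.272 and 0.209 CPM in explants and at 1.22 and 1.63 CPM with cyclopamine (negative, then positive). In EC the values were 0 and 0.806 CPM against 26.6 and 13.4 CPM, and in HPSC 0 and 0.868 CPM against 1.88 and 1.37 CPM. It was higher with cyclopamine in 6 of 6 blocks with no overlap (log2 fold change 3.57 ± 1.49, adjusted p = 0.52). The groups did not overlap for 3 members (Wnt10b, Wnt7a and Wnt6), against 1.08% of all genes. In fresh EC libraries Wnt6 was at 5.03 CPM (negative) and 0.503 CPM (positive). Gonad and coelomic epithelium markers summed to 172.9 and 184.0 CPM in the EC explants and to 520.6 and 277.2 CPM in the EC cyclopamine libraries. In MC and HPSC this sum was higher with cyclopamine in the negative and lower in the positive fraction. Its part in the Wnt6 difference was not tested.

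The libraries themselves differed by culture in 2 measures beside these rare transcripts. Fresh libraries had 21.74 to 41.96% of reads outside annotated features. Explants had 35.0 to 49.41% and cyclopamine libraries 19.51 to 33.01%, so that the last 2 ranges did not overlap. The median number of genes with counts was 14810, 18240 and 13810, and the median number of the 41 members with counts was 25.5, 38 and 25. With the share as a covariate, the log2 fold change of Wnt10b, explant minus fresh, was 5.21 against 6.18 without it (adjusted p = 1). That of Fzd9 was 7.32 against 4.97 (adjusted p = 0.721). Wnt8b was at 0 in all 6 fresh libraries, and Wnt7a and Wnt10b were at 0 in all 6 cyclopamine libraries. For these comparisons no finite fold change can be fitted, so sizes with and without the covariate are not compared. With it none was called (Wnt8b adjusted p = 0.875). In every block the share was higher in the explant than in the fresh and the cyclopamine library. These fits therefore cannot tell the share and the culture apart. The part of the number of genes with counts was not tested. Wnt1, 11.71 kb from Wnt10b on chromosome 15, had counts in 1 explant library, EC positive, and in no other.

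**Figure D5:**
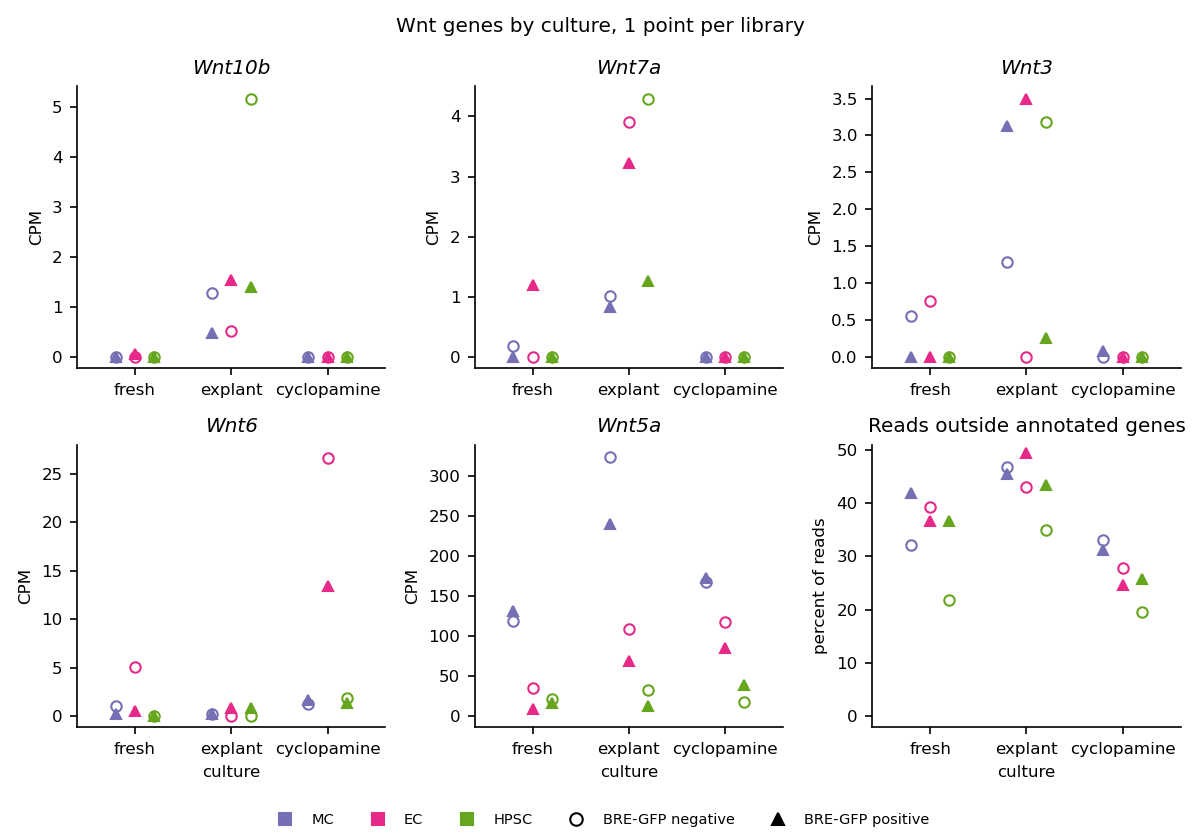
CPM of Wnt10b, Wnt7a, Wnt3, Wnt6 and Wnt5a and the percent of reads outside annotated genes, 1 point per library, by culture, with colour for population and shape for BRE-GFP fraction. Wnt10b and Wnt7a lie at 0 in all 6 cyclopamine libraries and above 0 in all 6 explants, and the shares of reads outside genes are 35.0 to 49.41% in explants, above all cyclopamine libraries and overlapping the fresh ones.

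Within single populations, where each culture contrast rests on 2 pairs, no member was called. Explant against fresh called 0% of genes in MC, 0.00616% in EC and 0% in HPSC, and 0, 2 and 5 of 36 members (0, 5.56 and 13.9%) had an unadjusted p under 0.05, against 2.48, 2.3 and 4.31% of all genes. Cyclopamine against explant called 0% of genes in MC, 0% in EC and 0% in HPSC, with 1, 2 and 3 members (2.78, 5.56 and 8.33%) at an unadjusted p under 0.05, against 0.659, 4.2 and 5.92% of all genes. DESeq2 called 1 member in these 6 contrasts, Dkk2 for explant against fresh in HPSC, among 266 genes. The difference of the culture effect between populations was called for 0.00616% of genes and for no member, with the lowest p for Fzd6 (adjusted p = 1). In HPSC Fzd6 was at 8.91 and 18.1 CPM in fresh, 26.3 and 112 CPM in explant and 96.9 and 93.0 CPM in cyclopamine libraries. In MC it stayed between 1.22 and 8.97 CPM in all 3 cultures.

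Of the 5 members that did not pass the filter, Wnt1, Wnt7b, Wnt10a, Wnt16 and Rspo4, the highest value was 1.84 CPM, for Wnt16 in MC explant negative. The tested members not described above stayed low. The Lrp inhibitor Dkk1 reached 15.4 CPM, in MC explant positive, and the receptor Fzd10 reached 10.2 CPM, in EC fresh positive. The highest values of the others were 8.86 CPM for Fzd5, 6.10 CPM for Rspo2, 4.83 CPM for Wnt2b, 4.75 CPM for Sfrp4, 3.96 CPM for Fzd8 and 2.29 CPM for Dkk4. All of these had at least 4 libraries at 0, and edgeR called none in any comparison, while limma-voom and DESeq2 each called Sfrp4 between HPSC and MC. Some members are neighbours on a chromosome. Wnt3a and Wnt9a, 16.18 kb apart on chromosome 11, were at 3.27 and 0.0629 CPM in EC fresh positive. Wnt6 and Wnt10a, 6.194 kb apart on chromosome 1, were at 26.6 and 0 CPM in EC cyclopamine negative.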

How the data were processed

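Count tables of 18 libraries, 1 per combination of 3 populations, 3 cultures and 2 BRE-GFP fractions, were used. Per the labels' protocols RNA was extracted with a mirVana kit and amplified with SMARTer. Per the submitters' processing notes TopHat, Cufflinks, HTSeq and mm10 were used; of versions, annotation and strand setting nothing is given in the sources used here. The deposited values are whole-number counts per gene symbol that the authors did not normalize. Reads at no feature (19.5 to 49.4%) and ambiguous reads (0.479 to 0.935%) stayed out of library sizes. Nothing in the labels says that libraries came from separate embryos, so p-values measure the spread between these libraries, which may be partly technical. With 1 library per combination, each block had its own term in the fit. Spread was estimated from how the differences within blocks varied from block to block.

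The filter kept 16231 of 21881 symbols, those that reached 0.796 CPM (10 counts in a library of median size) in 3 or more libraries. Tests used edgeR 4.0.16 (R 4.3.3): a quasi-likelihood F test, TMM scaling, matched libraries as blocks, and Benjamini-Hochberg adjustment over all genes tested, with calls at 0.05. CPM values are TMM-scaled, errors of means are SDs over libraries, and errors of fold changes are SEs of the fit. The fitted common coefficient of biological variation was between 0.884 and 0.922. The test was checked on simulated data. Lengths and coordinates came from GENCODE M21 (GRCm38, the assembly of mm10). Bounds for genes at 0 use 3 counts over the group and cover counting error only. DESeq2 1.42.0, limma-voom (limma 3.58.1), other filters and scalings, a model without blocks, a covariate and each library left out were tried as alternatives. Values per library were given for called members and the most abundant of each family, and, where none was called, for those of lowest p. The members, the 5 pathway lists and the marker lists were chosen with earlier results of these data known.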

Additional observations from a re-analysis of the deposited data

Results flagged for a closer look

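Within each population of 6 libraries, 54 gene and population groups were searched for a library that stands far from the other 5 on the log2(CPM + 1) scale (gap over range above Dixon's critical value), and 13 were found, where chance gives about 1 in 20. No explanation was tested.

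HPSC cyclopamine negative, the shallowest library, was low for Fzd3 (0 CPM, next 11.4) and Sfrp1 (2.26 CPM, next 36.8) and high for Wnt5b (97.6 CPM, next 4.36). EC cyclopamine negative was low for Wnt2 (0 CPM, next 14.5) and Fzd7 (0.39 CPM, next 11.6). MC fresh positive was high for Sfrp2 (230 CPM, next 99.8) and Fzd1 (204 CPM, next 69.0). EC explant positive was high for Wnt9a (3.49 CPM, next 0.109). HPSC explant positive was high for Wnt9a (1.20 CPM, next 0.0794) and Rspo1 (1.0 CPM, the other 5 at 0). HPSC fresh negative was high for Wnt2 (38.1 CPM, next 2.80). EC fresh negative was low for Wnt5b (0.109 CPM, next 2.76), and EC cyclopamine positive was high for Sfrp4 (4.44 CPM, next 0.547).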

How the results depend on the processing

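No direction reversed under any alternative run. Counts of members called, 1 for HPSC against EC, 1 for MC against EC and 10 for HPSC against MC, were 3, 3 and 16 with limma-voom, 6, 4 and 17 with DESeq2, and 0, 0 and 2 with the share of reads at no feature as a covariate. Over all genes the counts 52, 413 and 1615 became 228, 781 and 2872, then 795, 1236 and 3593, then 5, 388 and 518. For BRE-GFP, explant and cyclopamine, 0 members each, limma-voom called 0, 2 and 2 and DESeq2 1, 1 and 0, and all genes went from 9, 22 and 0 to 73, 165 and 31 and to 365, 464 and 172. Within populations DESeq2 called 2 members of 405 genes for BRE-GFP in EC, 2 of 929 in HPSC and 1 of 266 for explant in HPSC. With no filter beyond 1 count, Wnt9b missed the threshold between HPSC and MC (adjusted p = 0.0542). The cause of these differences was not tested. Leaving out each library in turn gave 0 to 1, 0 to 1 and 5 to 13 members for the 3 population comparisons and 0 to 0 for the other 3. Without the library of fewest detected genes in each population, an alternative chosen after seeing the data, MC against EC called 2. There HPSC against MC called 10, with Fzd1 gained and Fzd3 lost (log2 fold change of Fzd3 -1.62, edgeR adjusted p = 0.056). Blocks were libraries matched by population, culture and fraction, and none were formed by replicate number, which the labels do not give. Depth limits the rare ligands: 3 counts in the shallowest library, HPSC cyclopamine negative, are 1.13 CPM, above the fresh mean of Wnt3a (1.03 CPM).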
